A study of Mus musculus with 2 samples.

Results

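The microRNAs described here are 10 hairpin genes known from microglia, blood leukocytes and red cells, among the 1973 genes of the deposited tables. They were chosen by name: Mir142b, Mir146, Mir146b, Mir150, Mir155, Mir223 and Mir21a for microglia and leukocytes, and Mir144, Mir451a and Mir486 for red cells. Small RNA was sequenced from the midbrain of newborn mice of the B6NCrl strain on postnatal day 0, with no transgene, treatment or second condition named in the labels. There was 1 group of 2 animals, pup 3 and pup 1, each giving a single midbrain and 1 library of total RNA with a size range of under 30 bases. The labels name a different pup for each library but give 1 donor identifier for both, and sex is not recorded, so the libraries were taken as 2 animals on the word of the labels.

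MicroRNAs are cut from hairpin precursors, loaded into Argonaute proteins and guided by their seed, bases 2 to 8, to messenger RNAs that they repress. In the brain, microglia are the resident cells of haematopoietic origin, and they carry microRNAs otherwise found in blood leukocytes. Red cells carry their own microRNAs at high copy, so a brain sample that holds blood also holds these. Whether the tissue was perfused is not given in the sources used here.

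Mature sequences annotated at these loci are shown because reads are assigned by sequence alone, and because their seeds decide what they can pair with. Matched by symbol, 9 of the 10 members had a mature sequence in the RefSeq table of build GRCm38.p6, Mir486 being the other one. For Mir150 the only entry is that of the 3′ arm, so its 5′ arm is not printed and the seed of that arm is not counted below. Printed are 1 entry for each of the 9 members and both entries of Mir142, and they run 5′ to 3′ with the seed in capitals.
miR-21a-5p: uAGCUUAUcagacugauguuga (chr11:86584120-86584141, minus strand)
miR-146a-5p: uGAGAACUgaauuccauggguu (chr11:43374435-43374456, minus strand, from Mir146)
miR-146b-5p: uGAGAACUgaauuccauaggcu (chr19:46342790-46342811, plus strand)
miR-150-3p: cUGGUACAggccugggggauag (chr7:45121798-45121819, plus strand)
miR-155-5p: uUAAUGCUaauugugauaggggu (chr16:84714143-84714165, plus strand)
miR-223-3p: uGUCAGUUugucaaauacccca (chrX:96242884-96242905, plus strand)
miR-144-3p: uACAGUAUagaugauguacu (chr11:78073047-78073066, plus strand)
miR-451a: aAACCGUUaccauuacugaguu (chr11:78073186-78073207, plus strand)
miR-142a-3p: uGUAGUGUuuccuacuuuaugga (chr11:87756903-87756925, plus strand, from Mir142)
miR-142a-5p: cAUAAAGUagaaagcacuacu (chr11:87756867-87756887, plus strand, from Mir142)
miR-142b: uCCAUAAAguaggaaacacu (chr11:87756906-87756925, minus strand)

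Among the 15 mature entries of the members there were 14 different seeds, and the only pair with a common seed was miR-146a-5p and miR-146b-5p. Counted from the 5′ end, these 2 sequences share their first 17 bases and differ at G18A and U21C, miR-146a-5p being given first. The hairpins of Mir146 and Mir146b share a run of 21 bases, and no other member had 20 or more bases in a row in common with any of the 2202 annotated hairpins outside its own locus. Reads matching more than 1 place enter no gene in these tables, so a read of either paralog that ends before base 18 is lost to both, and their levels are uncertain. Outside the members, miR-21c has the seed of miR-21a-5p, and its gene Mir21c had 0 counts in both pups, for which the upper limit is 0.939 CPM in pup 3, against 1.28 CPM in pup 1.

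The files hold 7382778 reads of pup 3 and 5461825 reads of pup 1, and the tables assign 3195277 of those in pup 3 and 2337113 of those in pup 1 to the sense strand of a microRNA gene, called its own strand here. Levels are CPM, counts scaled to 1000000 own-strand gene counts. A read covers a mature microRNA of 20 to 23 bases and counts the hairpin it comes from, so levels were not divided by length, and the arms of a hairpin cannot be told apart. A gene with 10 or more counts in both pups was called detected, and 18.2% of the 1973 genes were. Of the neuronal microRNAs on the list, 8 of the 11 that are in the table were detected. The summed level of all 11 was 49500 CPM in pup 3, against 44875 CPM in pup 1. Of this sum, Mir137 alone held 26512 CPM in pup 3 and 22082 CPM in pup 1. Of 4 striated muscle hairpins in the table only Mir206 was detected. Reads that map to several places, 39.8% of the file in pup 3 and 38.7% in pup 1, enter no gene. Hairpins of families with several copies, present on both lists, can therefore miss counts whatever the tissue. Neuronal microRNAs also do not tell midbrain from other brain regions, so these lists do not check the tissue label. Lists and members alike come from bulk tissue, in which fewer cells of a type and less RNA per cell cannot be told apart.

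All 10 members were detected, the lowest count being 16, where 18.2% of all genes were. Together they held 20989 counts in pup 3 and 13747 in pup 1. Set against the own-strand total these come to 0.657% in pup 3, with an exact 95% binomial interval of 0.648 to 0.666, and to 0.588% in pup 1, with one of 0.578 to 0.598. The members' counts include the opposite-strand counts of Mir142b given below, which the own-strand total does not hold, and with them in the total the shares were still 0.657% in pup 3 and 0.588% in pup 1. Mir21a alone made up 85.3% of this sum in pup 3 and 82.1% in pup 1. The other 9 members together held 968 CPM in pup 3, against 1052 CPM in pup 1, so the summed level of the members is in the main that of 1 gene. For scale, Mir126a, the endothelial microRNA, held 30095 CPM in pup 3, against 36188 CPM in pup 1.

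**Figure D1:**
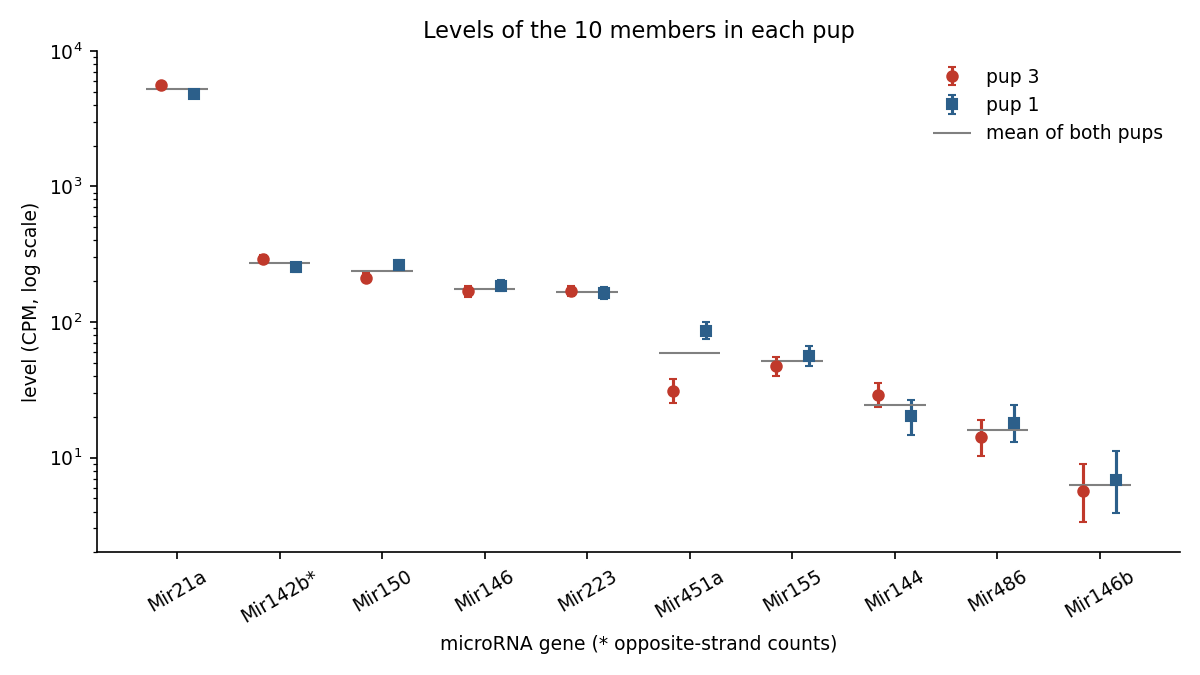
Level of each member in CPM on a log axis, in pup 3 (circles) and pup 1 (squares), with exact 95% Poisson counting intervals and the mean of both pups as a line; the star marks opposite-strand counts. Mir21a lies at 5601 CPM in pup 3, against 4830 CPM in pup 1, every other member at 291 CPM or less, and the points of Mir451a lie farthest apart.

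Mir21a (ENSMUSG00000065455.1), a microRNA of many cell types that is induced in activated microglia and macrophages and represses Pdcd4, was the most abundant member. It had 17897 counts (5601 CPM) in pup 3 and 11289 counts (4830 CPM) in pup 1, a mean of 5216 ± 545 CPM (SD, n = 2), and ranked 41st of all genes, between Mir7b and Mir140. Its hairpin lies at chr11:86584067-86584158 on the minus strand, within an exon of a Vmp1 transcript. It stood 19.2-fold above the next member by mean level. Since Mir21a is made by many cell types, its level is given apart from those of the leukocyte microRNAs.

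Mir142b (ENSMUSG00000065420.2) stands for the locus of miR-142, a microRNA found throughout the haematopoietic lineage and, in the brain, in microglia. It had 931 opposite-strand counts (291 CPM) in pup 3 and 590 (252 CPM) in pup 1, against 0 own-strand counts in both. Its annotated hairpin, chr11:87756841-87756955 on the minus strand, covers all 64 bases of Mir142 on the plus strand, and Mir142 has no row of its own in the tables. The mature miR-142b is, base for base, the reverse complement of 20 bases of miR-142a-3p, so opposite-strand reads there have the sequence of the Mir142 strand. At 272 ± 27.5 CPM (SD, n = 2) this locus was the highest of the members after Mir21a, at rank 171.

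**Figure D2:**
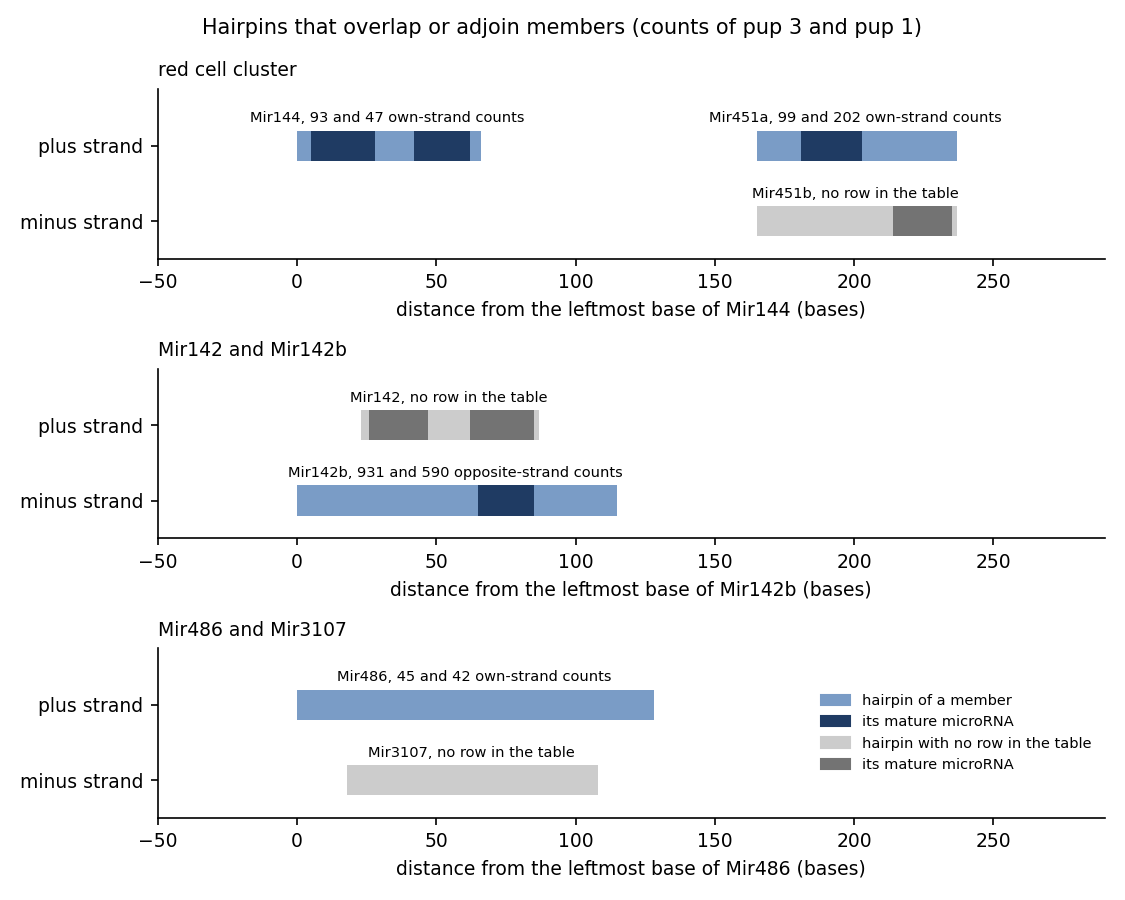
Annotated hairpins at 3 loci in bases from the leftmost base of Mir144, Mir142b and Mir486, by strand, with the counts of pup 3 and pup 1 in that order; blue hairpins are members, grey ones have no row in the tables, and dark parts are mature microRNAs in the RefSeq table. Mir142 lies wholly within Mir142b on the other strand, Mir451b covers the same bases as Mir451a, and Mir3107 lies within Mir486.

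Mir150 (ENSMUSG00000065495.1), a microRNA of mature lymphocytes that represses Myb, had 679 counts (213 CPM) in pup 3 and 613 counts (262 CPM) in pup 1, a mean of 237 ± 35.2 CPM. Mir223 (ENSMUSG00000076066.1), the microRNA of granulocytes and other myeloid cells, had 541 counts (169 CPM) in pup 3 and 384 counts (164 CPM) in pup 1, a mean of 167 ± 3.54 CPM and, relative to the mean, the smallest spread of the members at 2.12%. The level of Mir150 was higher in pup 1, and that of Mir223 was nearly equal in both. Mir150 lies at chr7:45121757-45121821 in no host gene of the annotation, and Mir223 at chrX:96242817-96242926 in an exon of the noncoding gene F630028O10Rik, both on the plus strand. The loci of miR-142 and miR-223 stood in nearly the same proportion in both pups, Mir142b making up 63.2% of their joint counts in pup 3 (60.7 to 65.7 by the exact interval), against 60.6% in pup 1 (57.4 to 63.7).

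Mir146 and Mir155 are induced by NF-kB signalling in activated immune cells. Mir146 (ENSMUSG00000065601.1), whose mature miR-146a represses the signalling genes Traf6 and Irak1, had 536 counts (168 CPM) in pup 3 and 432 counts (185 CPM) in pup 1. Its paralog Mir146b (ENSMUSG00000070127.2), with the same seed, had 18 counts in pup 3 and 16 in pup 1, or 6.24 ± 0.858 CPM, the lowest level of the members. Mir146b thus made up 3.25% of the counts of the pair in pup 3 (1.94 to 5.09 by the exact interval), against 3.57% in pup 1 (2.05 to 5.74), and by mean level Mir146 stood 28.3-fold higher. Both can lose reads to their shared bases, to a degree that was not measured. The hairpins lie at chr11:43374397-43374461 on the minus strand, in no host gene, and at chr19:46342762-46342870 on the plus strand, in an intron of Mfsd13a.

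Mir155 (ENSMUSG00000065397.1), which is cut from an exon of the noncoding gene Mir155hg and represses Socs1 and Inpp5d, had 150 counts (46.9 CPM) in pup 3 and 132 counts (56.5 CPM) in pup 1. At 51.7 ± 6.74 CPM it lay beside Mir122 of hepatocytes in the order of all genes. Its hairpin lies at chr16:84714140-84714204 on the plus strand. Other microRNAs of leukocytes were read from a list of 5, all detected: Mir342, a microRNA of lymphocytes that is hosted by Evl, a gene also active in the brain, had 9135 CPM in pup 3, against 12073 CPM in pup 1, and Mir652 had 4365 CPM in pup 3, against 4237 CPM in pup 1. Mir326 stood at 85.8 CPM in pup 3, against 90.7 CPM in pup 1, while Mir147 and Mir511, an intronic microRNA of the macrophage receptor gene Mrc1, had mean levels of 7.98 and 6.83 CPM. Mir511 had 30 counts in pup 3 and 10 in pup 1, below the count minimum of the test described below. Of the 3 on this list whose count averaged 50 or more, none differed 2-fold between the pups. At any fold, Mir342 and Mir652 passed the adjusted Fisher's test described below, where 57.5% of all 287 tested genes did. Mir342 was lower in pup 3, with a log2 ratio of -0.45 (0.720 to 0.744-fold). For Mir652 the log2 ratio was -0.006 (0.970 to 1.02-fold, adjusted p = 0.0417).

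The red cell members were the least abundant group, with 74.2 CPM in pup 3, against 124.5 CPM in pup 1, for all 3 together. As shares of the own-strand counts these are 0.00742% in pup 3 (0.00650 to 0.00842 by the exact interval) and 0.0125% in pup 1 (0.0111 to 0.0140). Mir144 (ENSMUSG00000065401.1) and Mir451a (ENSMUSG00000070065.1) lie 99 bases apart on the plus strand, at chr11:78073005-78073070 and chr11:78073170-78073241, and are made from 1 primary transcript driven by Gata1 in erythroid cells. Mir486 (ENSMUSG00000070084.3), a microRNA of red cells and striated muscle, lies in an intron of the erythrocyte ankyrin gene Ank1 at chr8:23142555-23142682 on the plus strand. It had 45 counts (14.1 CPM) in pup 3 and 42 counts (18.0 CPM) in pup 1. The hairpin of Mir486 shares a run of 22 bases with its own reverse complement, so reads within that run match both strands and can be lost as reads that map to several places, and its level is uncertain.

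Mir451a was the member in which the pups differed most. It had 99 counts (31.0 CPM) in pup 3 and 202 counts (86.4 CPM) in pup 1, where its neighbour Mir144 had 93 counts (29.1 CPM) in pup 3 and 47 counts (20.1 CPM) in pup 1. Pup 3 was thus the lower of the pups for Mir451a and the higher one for Mir144, although the difference in Mir144 did not pass the test described below. Mir451a made up 51.6% of the counts of the pair in pup 3 (44.3 to 58.8 by the exact interval), against 81.1% in pup 1 (75.7 to 85.8), or 1.06 counts in pup 3 and 4.30 counts in pup 1 for each count of Mir144, a proportion that does not depend on the library totals. Against Mir486 its share was 68.8% in pup 3 (60.5 to 76.2) and 82.8% in pup 1 (77.5 to 87.3). In both pairs the intervals, which cover counting error only, did not overlap. Without Mir451a the red cell members held 43.2 CPM in pup 3, against 38.1 CPM in pup 1.

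The hairpin of Mir451a is shown because it is unlike those of the other members. Its mature microRNA, in capitals, is made without Dicer: the short hairpin is cut by Argonaute 2 and trimmed, so that the mature sequence runs on into the loop.
Mir451a hairpin: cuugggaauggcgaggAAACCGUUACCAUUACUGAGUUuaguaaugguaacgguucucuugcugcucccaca
Folded with RNAfold, the hairpin of 72 bases had 30 base pairs and a terminal loop of 4 bases, all 4 of which lie within the mature sequence at bases 17 to 38. Of the 14 mature entries of the 8 members whose hairpins were folded, the other 13 had no base in the terminal loop. The fold is a prediction from sequence. The hairpin holds a run of 16 bases that matches its own reverse complement, which is shorter than the mature sequence, and no read of either pup was counted on its opposite strand, where Mir451b is annotated.

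In the order of mean levels, several neighbours did not differ beyond their spread over the pups. The ranges of Mir142b and Mir150 overlapped, as did those of Mir146 and Mir223 and those of Mir451a and Mir155. The ranges of the remaining neighbours were apart: Mir21a above Mir142b, Mir150 above Mir146, Mir223 above Mir451a, Mir155 above Mir144, Mir144 above Mir486 and Mir486 above Mir146b. These ranges leave out counting error. In pup 1 the counting intervals of Mir144 (14.8 to 26.7 CPM) and Mir486 (13.0 to 24.3 CPM) overlapped, so their order in that pup is not settled. The median of the members was 113 CPM, against 227 CPM for all 360 detected genes, and 3 of the 10 members lay above that median.

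To compare the pups, the counts of a gene and the rest of the counts in both libraries were put to Fisher's exact test (two-sided), adjusted over all 287 genes whose count averaged 50 or more, of which 8 were members. A gene was called with an adjusted p under 0.05 and at least a 2-fold ratio after TMM scaling, and 1.74% of the 287 genes were called. This test compares 2 libraries of 1 group and has no replicate check. Of the 8 members 1 was called: Mir451a was 2.87-fold higher in pup 1 (95% counting interval 2.26 to 3.71-fold), a log2 ratio of pup 3 over pup 1 of -1.52 with a Benjamini-Hochberg adjusted p of 2.8e-17. Of all tested genes 1.05% were called higher and 0.697% lower in pup 3. For Mir144 the log2 ratio was 0.48, with a counting interval of 0.975 to 2.03-fold and an adjusted p of 0.0683.

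**Figure D3:**
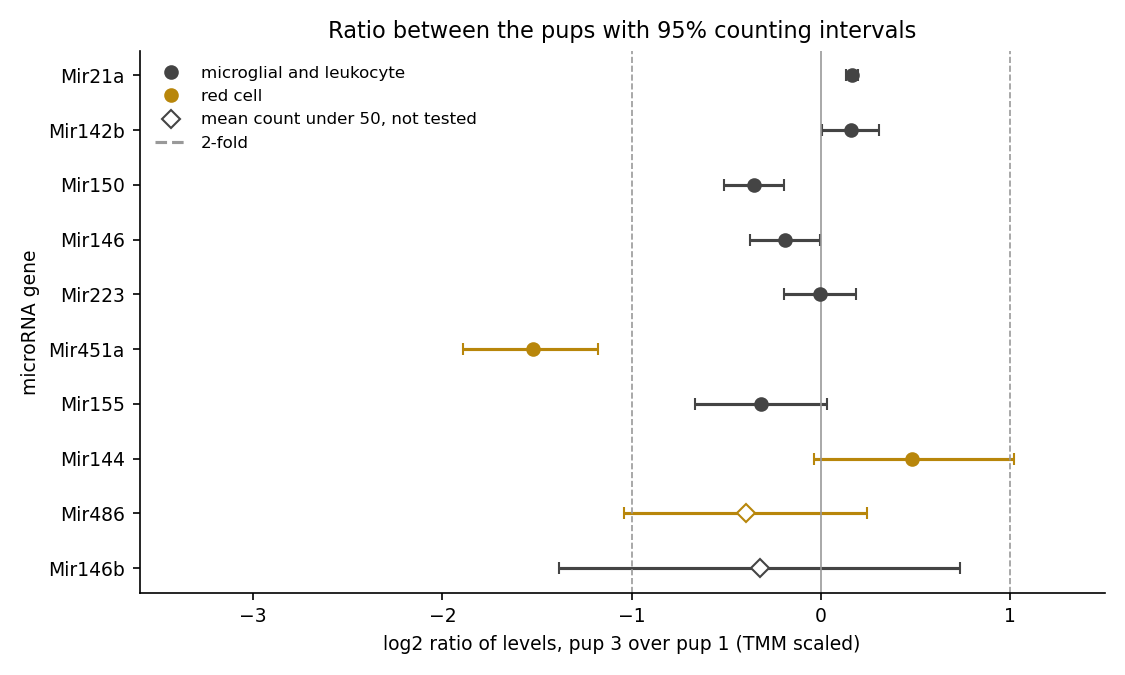
Log2 ratio of each member, pup 3 over pup 1, with exact 95% counting intervals; dashed lines mark 2-fold, gold marks red cell members, and open diamonds are members with a mean count under 50. The interval of Mir451a lies wholly beyond 2-fold on the side of higher levels in pup 1, and that of Mir144 lies mostly on the other side of 0.

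At any fold, 4 of the 8 members passed the adjusted test, 2 higher and 2 lower in pup 3, where 57.5% of all tested genes did, 34.5% higher and 23.0% lower. Mir21a was slightly higher in pup 3 with a log2 ratio of 0.16 (1.09 to 1.15-fold), as was Mir142b with 0.16 (1.01 to 1.24-fold, adjusted p = 0.0126). The result for Mir142b was lost, at an adjusted p of 0.0515, when the most abundant gene was left out of the totals. Mir150 was lower in pup 3 with a log2 ratio of -0.35 (0.701 to 0.875-fold, adjusted p = 0.000432), and Mir451a was the other one. Mir146 and Mir155 had log2 ratios of -0.19 (0.771 to 0.998-fold) and -0.31 (0.632 to 1.02-fold) and did not pass (adjusted p = 0.197 and 0.194). The interval of Mir146 stays just below 1, although this gene did not pass. Intervals use TMM-scaled totals, where Fisher's test used unscaled ones.

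Mir223 had a log2 ratio of -0.01 (0.872 to 1.14-fold, adjusted p = 0.732), whose sign turns with plain CPM, with scaling by all reads of the file and with either-strand counts. Mir486 and Mir146b were below the count minimum. With a mean count of at least 10, which took in both, their log2 ratios were -0.40 and -0.32 with adjusted p = 0.418 and 0.728. The counting intervals of these 2 ratios were 0.486 to 1.18-fold and 0.383 to 1.67-fold, both of which hold a 2-fold lower level in pup 3.

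**Figure D4:**
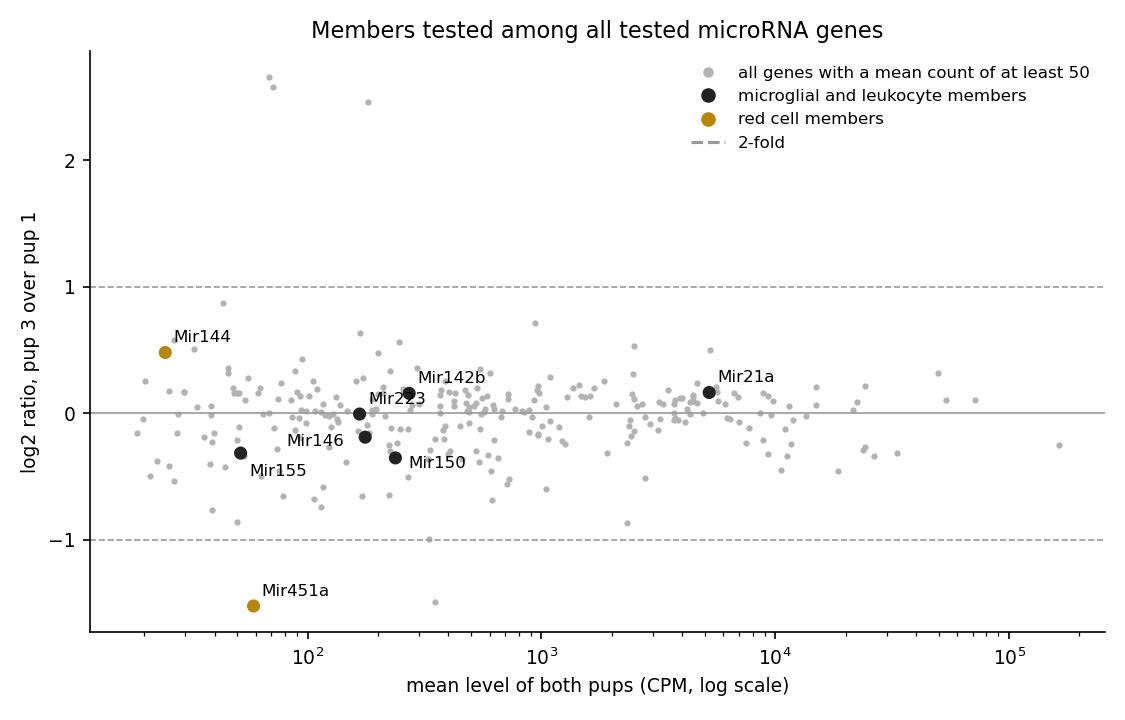
Log2 ratio of pup 3 over pup 1 against the mean level in CPM (log axis) for the 287 tested genes (grey), with the 8 tested members in black (microglial and leukocyte) and gold (red cell); dashed lines mark 2-fold. Of the members, Mir451a lies beyond 2-fold and the other 7 lie within 1.5-fold.

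Over the 8 tested members the median log2 ratio was -0.10, with 3 above and 5 below 0, where Mir223 changes sides under the scalings named above, and over all 287 genes it was 0.02, with 152 above and 135 below. Within 1.5-fold lay 7 of the 8 members and 93.4% of all tested genes. Beside the lower level of Mir451a in pup 3, Mir126a of endothelium had a log2 ratio of -0.31, Mir143 of mural cells -0.07, and Mir122 of hepatocytes -0.34. None of these reached 2-fold, and their part in the result was not tested. Mir126a passed the adjusted test at any fold, while Mir143 and Mir122 did not (adjusted p = 0.323 and 0.150). Lists of other cell types also had median log2 ratios below 0, -0.12 for neuronal and -0.16 for oligodendrocyte microRNAs. Of the 7 neuronal microRNAs tested, 2 passed the adjusted test higher and 4 lower in pup 3. Without Mir21a the 6 remaining microglial and leukocyte members, Mir142b with its opposite-strand counts among them, came to 0.0894% of the own-strand total in pup 3 (0.0861 to 0.0927 by the exact interval), against 0.0927% in pup 1 (0.0889 to 0.0967), and these intervals overlap. With the counts of Mir142b added to the total these shares were 0.0893% in pup 3 and 0.0927% in pup 1.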

How the data were processed

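Per the labels and the deposited descriptions, each library has 1 table of raw counts per gene, made from alignments to assembly mm10 with GENCODE M4. Which aligner and counter were used is not given in the sources used here. The authors deposited 3 count columns, for either strand, the own strand and the opposite strand. The own strand was used, and the opposite strand for Mir142b. A further 4 rows name no gene, held 56.7% of all reads in pup 3 and 57.2% in pup 1, and stayed out of totals and tests. Identifiers were matched without version to GENCODE M21 on GRCm38 (1894 of 1973).

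The members and lists were chosen with earlier results of these data known. The text names all members. Other microRNA genes were drawn from their neighbours in level, hairpins within 10 kb and up to 3 detected genes of each list, and not all of these are named. In addition, Mir147, Mir511 and Mir21c were named after their values were seen. Ratios used TMM (edgeR 4.0.16) with a prior count of 0.5, and DESeq2 1.42.0 gave alternative size factors. Tests and exact intervals came from scipy 1.17.1, and hairpins were folded with RNAfold 2.7.2. Fisher's test used unscaled totals, so for small ratios its direction can differ from that of the TMM ratio. The calculations were tested on simulated data that held counting error only, with no spread between animals and no TMM scaling. Intervals and floors, 3 counts for a count of 0, cover counting error only, since reads and not molecules were counted.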

Additional observations from a re-analysis of the deposited data

Results flagged for a closer look

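Reads on the strand opposite to Mir486, a column not used for this gene, came to 1 count in pup 3 and 5 counts in pup 1. The 5 counts, or 2.14 CPM, exceed the upper limit of 1.28 CPM set for 0 counts in that library. They made up 2.17% of the either-strand counts of the hairpin in pup 3 (0.0550 to 11.5 by the exact 95% interval), against 10.6% in pup 1 (3.55 to 23.1), and these intervals overlap. Mir3107 is annotated on that strand and has no row in the tables. The other members read on their own strand had 0 opposite-strand counts in both pups.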

How the results depend on the processing

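The alternatives were planned with earlier results of these data known, except a total with the opposite-strand counts of Mir142b, chosen after seeing the data, which gave a summed level of 6224 CPM. Mir451a was the called member under every alternative run for the calls except a threshold of 3-fold, which leaves 0 called members since its ratio is smaller, and its log2 ratio lay between -1.52 and -1.46 over the scalings and prior counts tried. Mir223, near 0, turned to 0.043 with plain CPM, 0.060 with scaling by all reads of the file and 0.0027 with either-strand counts, and no other member changed sign. The summed level of the members, 6225 CPM, was 2680 CPM when scaled by all reads of the file and 7432 CPM without the most abundant gene in the total, by construction of the totals. Either pup alone gave 5882 to 6569 CPM, and 6 to 8 of the 10 members at the same place in the order of levels. Dividing by hairpin length left 7 at the same place. Requiring 50 counts in each pup left 7 of the 10 members detected. Depth limits Mir146b, Mir486 and Mir144, with 16 to 93 counts. No paired analysis was possible because the series has 1 group.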
